A study of Mus musculus with 12 samples.

Results

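Regional transcription factors are nuclear proteins used mainly, though not only, in certain parts of the brain. Their mRNAs can therefore hint at where along the nerve axis a transcript pool came from. The 8 genes described here were chosen by symbol from the 21937 genes of the deposited table. The 5 forebrain factors were Emx1, Emx2, Tbr1, Neurod6 and Lhx2, and the 3 mid- and hindbrain factors were En1, En2 and Barhl1. All 8 were listed in all 12 libraries and passed the filter for testing, which asked for an average of 10 or more normalized reads. The RNA was that of myelin, the membrane that oligodendrocytes wrap around axons, purified on sucrose gradients as a light membrane fraction. The brains were those of male c57Bl6/N mice. All groups were labelled wild type, differed by label in age alone and had 3 libraries each. The youngest was P18, the age of newly formed myelin, followed by P75 and, in later adult life, 6 months and 24 months. The labels give each age its own run of consecutive library numbers, and what these stand for was not given. A difference that went with those numbers cannot be told apart from age. Each of the 3 libraries at 6 months was stated to come from the brain of its own mouse. For the other ages the source of a library was not given, so p-values there measure the spread between libraries. How the brains were dissected, and whether the olfactory bulb, hindbrain or cervical cord stayed on them, was not given in the sources used here.

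The forebrain and the hindbrain keep largely different sets of these factors from embryonic patterning into adult neurons. EMX1, EMX2 and LHX2 are homeobox proteins that pattern the cortex and hippocampus, LHX2 also acting in progenitors. TBR1 is a T-box protein of early-born, deep-layer cortical and olfactory bulb projection neurons, and NEUROD6 is a basic helix-loop-helix protein of cortical and hippocampal pyramidal neurons. EN1 and EN2 are homeobox proteins of the midbrain-hindbrain boundary, and EN2 stays on in the cerebellum. BARHL1 is a homeobox protein of cerebellar granule cells and of some mid- and hindbrain nuclei. Hox genes are read from the hindbrain backwards into the spinal cord, and in general the higher the number of their paralogue group, the further back their front limit lies.

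Homeobox proteins bind DNA at cores such as TAATTA, and basic helix-loop-helix proteins bind at CANNTG. Promoters are shown because 6 of the 8 members are themselves homeobox genes. Whether these sites had any part in the levels of the members was not tested. RefSeq promoters on GRCm38.p6, each of 300 bases from 250 before to 50 after a start, were matched for 7 of the 8 members, with 9 promoters in all. The 7 were all members but En2. The sequence before the Tbr1 start, at chr2:61804203-61804452 on the plus strand, held TAATTA at 2 places, 33 and 18 bases before the start. That before the En1 start, at chr1:120602237-120602486 on the plus strand, held none. The windows of 30 bases around the matches of Emx2, at chr19:59458710-59458739 on the plus strand, and Barhl1, at chr2:28916622-28916651 on the minus strand, lie just after the start. Capitals mark TAATTA, and all are written 5′ to 3′.
Tbr1: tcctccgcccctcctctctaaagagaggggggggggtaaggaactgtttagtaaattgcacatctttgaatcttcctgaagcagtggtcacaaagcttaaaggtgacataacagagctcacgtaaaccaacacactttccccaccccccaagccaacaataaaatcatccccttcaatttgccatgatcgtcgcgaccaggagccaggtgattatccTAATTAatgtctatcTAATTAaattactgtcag
En1: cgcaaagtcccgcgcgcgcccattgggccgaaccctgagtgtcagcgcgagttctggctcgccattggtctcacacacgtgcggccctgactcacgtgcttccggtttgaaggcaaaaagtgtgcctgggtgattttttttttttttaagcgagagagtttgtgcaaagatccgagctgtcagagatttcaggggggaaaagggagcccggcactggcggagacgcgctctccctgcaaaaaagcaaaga
Emx2: tatgtgatccccgcacTAATTAggctcatg
Barhl1: aggtctgtgctgTAATTAattcagtgtctc

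TAATTA, which reads the same on both strands, was in 5.29% of all 32851 promoters of that length. It was found in the promoters of Emx2, Tbr1 and 1 of the 2 of Barhl1, and not in those of Emx1, Neurod6, Lhx2 and En1. CANNTG, also the same on both strands, was in 72.3% of all promoters, and the Neurod6 promoter held 2 matches and that of En1 held 3. GGGCGG, searched on both strands, was in 35.7% of all promoters, with 4 matches each for Emx1 and for 1 of the 2 Lhx2 promoters. TATAAA, searched on both strands, was in 13.6% of all promoters and in none of the 9. GC content set Emx1 at 74.0% and Lhx2 at 74.7% and 69.3% apart from Tbr1 at 46.0% and Neurod6 at 46.3%, beside a median of 52.7% over all promoters.

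Values are normalized read counts, the reads on a gene divided by a size factor for the library, with 1 read worth between 0.812 and 1.188. The libraries held between 20299052 and 27214385 reads on genes. P18 replicate 3 stood apart from the other P18 libraries. Its 39 Hox genes summed to 14.99% of the mean of the other two P18 libraries, its 11 oligodendrocyte markers to 47.6% and its 6 astrocyte markers to 72.4%, and its 12 forebrain neuron genes summed to 1.403 times that mean. The oligodendrocyte sum is mostly Mbp. By gene the 11 ran from 46.1% for Mbp to 98.4% for Sox10 and 104.1% for Olig2. The 6 astrocyte markers ran from 39.5% for Aqp4 to 97.3% for Aldh1l1. The forebrain neuron sum is mostly Nrgn, at 1.505 times, and the 12 genes ran from 0.778 times for Drd2 to 1.573 times for Slc30a3. P18 replicate 1 held the largest Hox sum of all libraries. Values without replicate 3 are given beside the main results that rest on P18. Summed oligodendrocyte markers ran from 1274419.6 to 6184119 normalized reads over the libraries and summed neuron markers from 168192 to 228175, and none of the 11 and 10 markers was at 0 in any library.

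Per kilobase of exon the order of the 8 factors by mean was the same at all 4 ages. It ran from Neurod6 through Tbr1, Lhx2, Emx1, En2 and Emx2 to Barhl1 and En1. At 6 months Neurod6 was at 691 ± 35.6 per kilobase (SD, n = 3), Tbr1 at 320.2 ± 9.89, Lhx2 at 176 ± 10.4 and Emx1 at 84.2 ± 14.6. En2 was at 66.0 ± 3.36 at that age, Emx2 at 39.2 ± 2.49, Barhl1 at 14.5 ± 0.967 and En1 at 11.6 ± 1.48. Some neighbours in this order were not apart. Emx1 and En2 overlapped between replicates at P18, 6 months and 24 months, Tbr1 and Lhx2 and also Barhl1 and En1 overlapped at P18, and Barhl1 and En1 overlapped again at P75. The mid- and hindbrain factors therefore stood at or below the level of Emx1 on the scale per kilobase, with En2 the most abundant of the 3.

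Behind these levels stood between 1619 and 2476 reads per library for Tbr1, 1175 and 2199 for Neurod6, 476 and 1017 for Lhx2 and 280 and 594 for En2. Emx1 rested on 118 to 394 reads and Emx2 on 103 to 257. Barhl1 with 47 to 103 reads and En1 with 23 to 97 had the fewest. By mean normalized read count over the 12 libraries, not per length, Tbr1 ranked at 2366 and En1 at 12373 among the 21937 genes.

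The first comparison asks whether the factors of the 2 brain regions held their levels as myelin matured between P18 and P75. In the forebrain set Emx2, Neurod6 and Lhx2 fell, and in the mid- and hindbrain set En1, En2 and Barhl1 fell. The call rule throughout was an adjusted p under 0.1 by limma with Benjamini-Hochberg adjustment over the 14634 genes tested. By this rule 22.9% of all genes were lower at P75 and 25.9% were higher, and 6 of the 8 factors were lower and none was higher. The median log2 change was -0.39 for the 5 forebrain factors and -0.76 for the 3 mid- and hindbrain factors, beside 0.02 for all genes. Without P18 replicate 3 these medians were -0.28 and -0.71. In a bulk fraction, fewer cells of a type and less RNA of a gene per cell cannot be told apart.

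En2 was at 550.2, 671 and 551 in replicates 1 to 3 at P18 and at 398, 415 and 439 at P75. The groups did not overlap, and the difference was -0.50 ± 0.10 on the log2 scale (SE), a fall of 29.1% (limma, Benjamini-Hochberg adjusted p = 0.0008). En1, its paralogue, was at 78.4, 74.6 and 97.4 and then at 50.1, 64.0 and 25.4. All P75 libraries were below all P18 libraries, with replicate 3 at P75 far below the other two (log2 change -0.92 ± 0.27, limma adjusted p = 0.0117). Barhl1 was at 68.9, 116 and 99.4 and then at 50.1, 61.2 and 52.0, again without overlap (log2 change -0.76 ± 0.18, limma adjusted p = 0.0033).

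Among the forebrain factors, Lhx2 was at 1102, 1113 and 1022 at P18 and at 778, 895 and 794 at P75. It fell by 23.9% without overlap (log2 change -0.39 ± 0.10, limma adjusted p = 0.0064). Emx2 was at 217, 217 and 258 and then at 156, 184 and 155, also without overlap (log2 change -0.48 ± 0.14, limma adjusted p = 0.0100). Neurod6 was at 1622, 1545 and 2209 and then at 1225, 1369 and 1329, with P18 replicate 3 far above the rest (log2 change -0.44 ± 0.12, limma adjusted p = 0.0078). When each library was scaled to the same total, Neurod6 was not called (limma adjusted p = 0.115).

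Emx1 and Tbr1 did not pass the test between P18 and P75. Emx1 was at 253, 252 and 396 at P18 and at 278, 305 and 264 at P75 (log2 change -0.06 ± 0.19, limma adjusted p = 0.827). Tbr1 was at 1950.0, 1829 and 2468 and then at 2071, 2296 and 2173 (log2 change 0.08 ± 0.10, limma adjusted p = 0.568). In both genes P18 replicate 3 was the highest of the 3 libraries and lay above every P75 library. Without it Tbr1 was called higher at P75 (log2 change 0.21, limma adjusted p = 0.0543), the 6 factors that fell were still called lower, and the change of Emx1 turned to 0.16 without a call. Markers of several cell types moved with this comparison, in which 25.9% of all genes rose and 22.9% fell. Of the 11 oligodendrocyte markers 9 fell, or all 11 without P18 replicate 3, their sum running from 2471286 to 6184119 at P18 and from 1274419.6 to 1848210.3 at P75. Of 4 choroid plexus markers 3 rose, or 2 without P18 replicate 3, their sum running from 12541 to 14629 and then from 23407 to 28774. Of 6 microglia markers 4 rose (sums of 2686 to 3402 and 3481 to 3905), or 3 without P18 replicate 3. Of 3 tested olfactory sensory neuron markers, cells of the nose whose axons reach the bulb, 2 rose (sums of 2972 to 3351 and 3647 to 4498). The olfactory sum is mostly Gng13, which was not called, and the 2 that rose were Omp and S100a5. In P18 replicate 3 Omp was at 14.1% and S100a5 at 13.9% of the mean of the other P18 libraries. Of 10 neuron markers 3 rose and 3 fell, or 4 and 3 without P18 replicate 3. Of 6 astrocyte markers 2 fell, and none of 4 endothelial markers was called. None of these markers was at 0 in any library, and their part in the result was not tested.

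**Figure D1:**
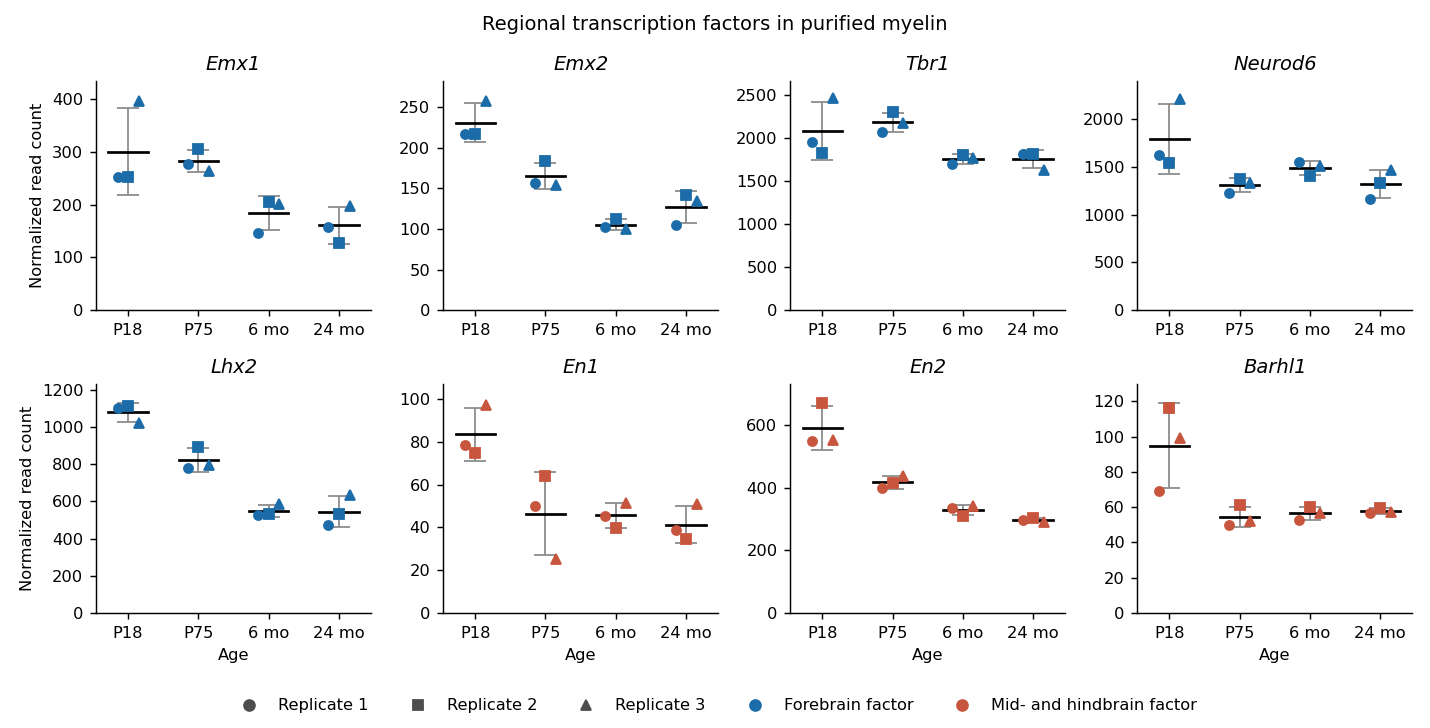
Normalized read count (vertical axes, each from 0) of the 8 factors by age, with a point for each of the 3 libraries, the mean as a black line and the SD as a grey bar. P18 replicate 3 is the highest point of Emx1, Emx2, Tbr1, Neurod6 and En1, and Lhx2 and En2 step down from P18 through P75 to 6 months.

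From P75 to 6 months Emx1, Emx2, Tbr1 and Lhx2 fell in the forebrain set, and only En2 of the 3 mid- and hindbrain factors did. Of all genes 29.4% were called lower and 31.2% higher in this comparison, and 5 of the 8 factors were lower and none was higher. The median log2 change was -0.58 for the forebrain factors and 0.06 for the mid- and hindbrain factors, beside 0.01 for all genes.

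Lhx2 was at 778, 895 and 794 at P75 and at 527, 533 and 586 at 6 months. The groups stood well apart, with a fall of 33.2% (log2 change -0.58 ± 0.10, limma with Benjamini-Hochberg adjusted p = 0.0002). Emx2 was at 156, 184 and 155 and then at 102, 113 and 100.2, without overlap (log2 change -0.64 ± 0.14, limma adjusted p = 0.0010). Emx1 was at 278, 305 and 264 and then at 147, 204 and 200.5, without overlap (log2 change -0.63 ± 0.19, limma adjusted p = 0.0095). Emx2os, the opposite-strand transcript of the Emx2 locus, averaged 55.0 ± 12.3 at P75 and 43.0 ± 7.07 at 6 months (SD, n = 3). The spans of the Emx2 and Emx2os genes do not overlap in the annotation used here. Whether strand was used in the counting was not given in the sources used here.

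Tbr1 was at 2071, 2296 and 2173 at P75 and at 1696, 1802 and 1771 at 6 months. It fell by 19.4%, the smallest of the 4 falls among forebrain factors, and the groups did not overlap (log2 change -0.31 ± 0.10, limma adjusted p = 0.0153). Neurod6, the pyramidal neuron factor, was the exception in direction, at 1225, 1369 and 1329 and then at 1552, 1403 and 1511. All of its 6-month libraries were above all P75 libraries, yet the difference did not pass the test (log2 change 0.19 ± 0.12, limma adjusted p = 0.196). It was called higher in a fit without P18 replicate 3 (limma adjusted p = 0.0714) and in a fit of only these 2 ages (limma adjusted p = 0.0787).

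En2 was at 398, 415 and 439 at P75 and at 335, 309.8 and 342 at 6 months, without overlap (log2 change -0.34 ± 0.10, limma adjusted p = 0.0073). Neither of the other mid- and hindbrain factors passed. En1 was at 50.1, 64.0 and 25.4 and then at 45.5, 39.9 and 51.6 (limma adjusted p = 0.859). Barhl1 was at 50.1, 61.2 and 52.0 and then at 52.8, 60.4 and 56.4 (limma adjusted p = 0.810). The P75 libraries of En1 spread over more than the whole range at 6 months. The direction of En1 was not settled. Its log2 change of 0.06 ± 0.27 became -0.31 without P75 replicate 3, -0.026 without 6-month replicate 3 and -0.047 by edgeR and by DESeq2 with all libraries. The direction of Barhl1, a log2 change of 0.06 ± 0.18, became -0.01 under quantile normalization.

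Between 6 and 24 months none of the 8 factors was called changed by limma, by edgeR's quasi-likelihood test or by DESeq2, and none had an unadjusted p under 0.05 in any of the 3 tests. Over all genes 12.7% were called lower and 16.6% higher by limma. Emx2 came nearest, at 102, 113 and 100.2 and then at 105, 142 and 134 (log2 change 0.26 ± 0.14, limma with Benjamini-Hochberg adjusted p = 0.189). It was called higher when 24-month replicate 1 was left out (limma adjusted p = 0.0774). En2 was at 335, 309.8 and 342 and then at 297, 303 and 292, with every 24-month library below every 6-month library, and did not pass (log2 change -0.14 ± 0.10, limma adjusted p = 0.311). The median log2 change was -0.02 for the forebrain factors and -0.14 for the mid- and hindbrain factors, beside 0.03 for all genes.

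At 24 months Emx1 was at 158, 128 and 197, Lhx2 at 472, 531 and 633 and Tbr1 at 1813, 1814 and 1633. Neurod6 was at 1164, 1334 and 1463, En1 at 38.6, 34.6 and 50.9 and Barhl1 at 56.5, 59.5 and 57.4. Each of these 6 overlapped its range at 6 months.

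Over the longest adult span, from P75 to 24 months, the factors that fell were Emx1, Emx2, Tbr1, Lhx2 and En2. Called lower were 26.1% of all genes and higher 28.8%, against 5 and none of the 8 factors. This comparison shares its P75 libraries with the one from P75 to 6 months. The log2 change was -0.83 ± 0.19 for Emx1 (limma adjusted p = 0.0019), -0.60 ± 0.10 for Lhx2 (limma adjusted p = 0.0002) and -0.49 ± 0.10 for En2 (limma adjusted p = 0.0008). It was -0.38 ± 0.14 for Emx2 (limma adjusted p = 0.0313) and -0.31 ± 0.10 for Tbr1 (limma adjusted p = 0.0169). Emx2 lost its call without P75 replicate 2 (limma adjusted p = 0.129) or without 24-month replicate 1 (limma adjusted p = 0.148). Neurod6 had a log2 change of 0.01 ± 0.12, En1 of -0.09 ± 0.27 and Barhl1 of 0.09 ± 0.18, with no call.

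**Figure D2:**
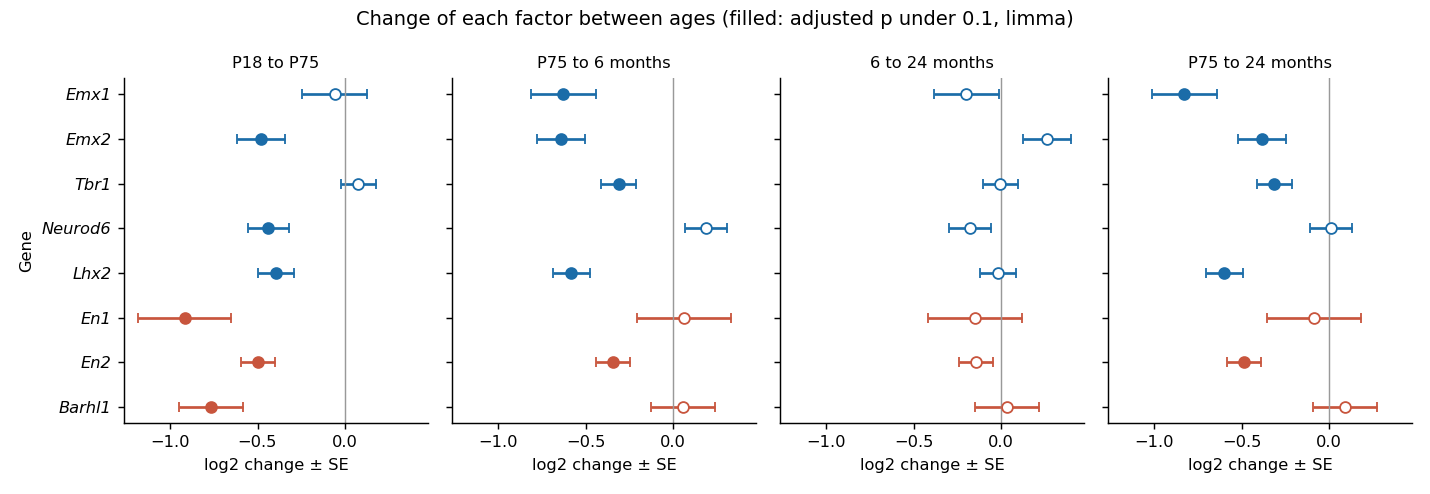
Log2 change (horizontal axes) of each factor in the 4 comparisons with its SE as a bar, forebrain factors in blue and mid- and hindbrain factors in red, filled where the limma adjusted p was under 0.1. Filled points lie to the left of 0 in 6, 5 and 5 of 8 genes from P18 to P75, P75 to 6 months and P75 to 24 months, and from 6 to 24 months no point is filled.

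Summed over genes, the forebrain factors stood at 5144, 4956 and 6352 at P18 and at 4507, 5048 and 4715 at P75. They stood at 4025, 4055 and 4169 at 6 months and at 3711, 3949 and 4060.0 at 24 months. The means at P75, 6 months and 24 months were 86.7%, 74.4% and 71.2% of that at P18. The mid- and hindbrain factors stood at 698, 862 and 748 at P18 and at 498, 541 and 516 at P75. They stood at 433, 410.1 and 449.6 at 6 months and at 392, 397 and 400 at 24 months, the means of the later ages being 67.4%, 56.0% and 51.5% of that at P18. Without P18 replicate 3, the P18 mean was 5050 for the forebrain factors and 780 for the mid- and hindbrain factors.

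The ratio of forebrain to mid- and hindbrain factors was 7.20 ± 1.38 in P18 myelin (SD, n = 3). It was 9.17 ± 0.148 in P75 myelin, 9.48 ± 0.349 at the age of 6 months and 9.85 ± 0.357 at 24 months. The P18 libraries ran from 5.75 in replicate 2 to 8.49 in replicate 3, all below the lowest library of any later age at 9.05. The libraries at 6 months overlapped those at P75 and those at 24 months, while P75 and 24 months did not overlap. Without replicate 3 the P18 mean was 6.56. No test was made of these sums, whose members were chosen with earlier results known. Per kilobase the ratio was 10.96 at P18, or 9.97 without replicate 3, and 13.3, 14.2 and 14.4 at the later ages. Tbr1 made up between 36.9% and 48.9% of the forebrain sum in the 12 libraries and Neurod6 between 27.1% and 38.6%. En2 made up between 72.9% and 85.0% of the mid- and hindbrain sum, so each sum was mostly that of its most abundant members. Lhx2 made up 19.98% of the forebrain sum at P18 and 13.4% at 6 months.

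**Figure D3:**
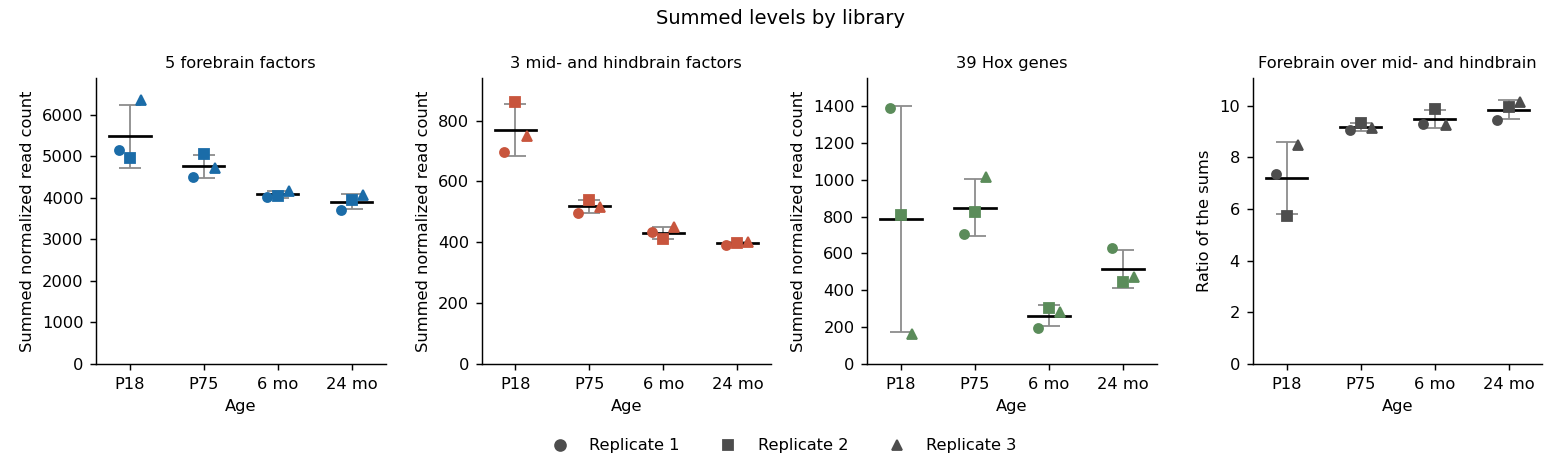
Summed normalized read count (vertical axes, from 0) of the 5 forebrain factors, the 3 mid- and hindbrain factors and the 39 Hox genes by age, and the ratio of the first sum to the second, with points for libraries, black lines for means and grey bars for SD. The ratio is lower in the 3 P18 libraries, at 5.75 to 8.49, than in the other 9, and the Hox sum of P18 spreads from 165 to 1390.

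The Hox genes, set against these factors as transcripts of the tissue behind the midbrain, did not keep in step with either set. Of the 39 listed, 11 were at 0 in all libraries and 14 passed the filter for testing. In the P18 libraries they summed to 1390.3, 808 and 165, and in the P75 libraries to 706, 826 and 1016. The 6-month libraries held 198, 305 and 285 and the 24-month libraries 632, 444.4 and 472. The P18 libraries spread 8.44-fold, a wider span than that between the means of any ages, where the same libraries spread over 4956 to 6352 for the forebrain factors and over 698 to 862 for the mid- and hindbrain factors. P18 replicate 3, lowest in Hox genes of all 12 libraries, held the highest forebrain sum of all 12, 1.26 times the mean of the other two P18 libraries. Its mid- and hindbrain sum was 0.960 times that mean. By gene it held 1.57 times as much Emx1, 1.395 times as much Neurod6, 1.31 times as much Tbr1 and 1.27 times as much En1, but 0.923 times as much Lhx2 and 0.903 times as much En2.

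From P75 to 6 months 13 of the 14 tested Hox genes fell, with a median log2 change of -1.46, beside 29.4% of all genes. Without P75 replicate 3 the count was 6, and without 6-month replicate 1 it was 8. In this comparison the members with calls fell by between 0.31 and 0.64 on the log2 scale. The Hox sum was 15.7% to 21.5% of the forebrain sum at P75 and 4.93% to 7.53% at 6 months, and 11.3% to 17.0% at 24 months. From 6 to 24 months 4 of the 14 rose, beside 16.6% of all genes, where none of the 8 factors was called. Without 6-month replicate 1 or 24-month replicate 1 none was called, without 6-month replicate 3 or 24-month replicate 2 only 1, and without 6-month replicate 2 only 2. From P75 to 24 months 2 fell, beside 26.1% of all genes, and 1 was called without P75 replicate 2 or 3 or without 24-month replicate 2 or 3. Only 1 Hox gene was called between P18 and P75, as higher, beside 25.9% of all genes, and the spread at P18 was wide. Without P18 replicate 3 these counts became 2 lower from P18 to P75, 9 higher from 6 to 24 months and 8 lower from P75 to 24 months. From P18 to P75, 9 Hox genes were called without P18 replicate 1, all higher, and 2 without P18 replicate 2, both higher, so the direction turned with the P18 library left out.

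Hoxa5 and Hoxb5, whose front limits lie in the lower hindbrain, were the most abundant Hox genes by normalized read count. Hoxa5 was at 239, 155 and 17.1 at P18 and at 135, 189 and 192 at P75. It was at 28.4, 48.8 and 55.5 at 6 months and at 122, 80.0 and 91.6 at 24 months, and fell from P75 to 6 months (log2 change -1.97 ± 0.62, limma adjusted p = 0.0129). Hoxb5 averaged 152 ± 29.2 at P75 and 42.8 ± 5.75 at 6 months (SD, n = 3), and it fell too (limma adjusted p = 0.0262). Hoxb2 and Hoxb3, of the hindbrain, fell with log2 changes of -1.71 ± 0.29 (limma adjusted p = 0.0002) and -1.53 ± 0.26 (limma adjusted p = 0.0002). Hoxb3 was the gene called higher at P75 than at P18 (limma adjusted p = 0.0390), and no Hox gene was called higher without P18 replicate 3 or without P75 replicate 3.

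Hoxb8, whose front limit lies further back, was at 229, 56.5 and 0 at P18 and at 50.1, 55.6 and 96.2 at P75. It was at 3.25, 15.98 and 1.95 at 6 months, where it rested on 4, 18 and 2 reads, and at 46.6, 15.1 and 13.9 at 24 months. The share of the Hox sum held by paralogue groups 6 to 9 was 27.9%, 13.7% and 0.607% in the 3 P18 libraries. It was 12.5% to 18.2% at P75, 3.76% to 10.5% at 6 months and 9.24% to 17.4% at 24 months. P18 replicate 3, with the lowest Hox sum, also had the lowest share of these posterior groups. Groups 10 to 13 never held more than 0.817% of the Hox sum.

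**Figure D4:**
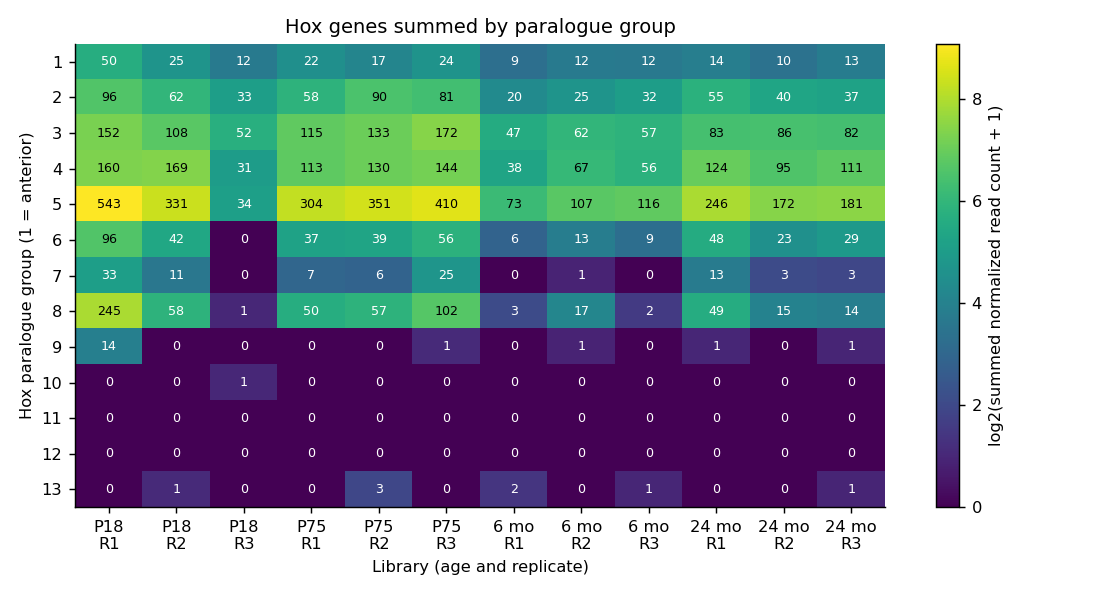
Normalized read count summed over the Hox genes of each paralogue group (rows, 1 being the most anterior) in each library (columns), coloured on a scale of log2(sum + 1) with the rounded sum written in each cell. Group 5 is the largest in every library but P18 replicate 3, where group 3 is, and groups 6 to 9 are near 0 in that library.

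Other regional factors were counted from lists of known regional genes. Of 16 other forebrain factors, all tested, 8 fell and 1 rose from P75 to 6 months, with a median log2 change of -0.54, beside 29.4% and 31.2% of all genes. Sp9 and Dlx2, factors of inhibitory neurons from the basal forebrain, fell with log2 changes of -0.998 and -0.751, and Lhx8, of cholinergic neurons there, with one of -0.84. From P18 to P75, 3 of the 16 rose and 3 fell, beside 25.9% and 22.9% of all genes. Without P18 replicate 3 the counts were 6 and 2. From 6 to 24 months 1 rose and 1 fell, beside 16.6% and 12.7% of all genes, or 1 and 3 without that library. From P75 to 24 months 10 fell and none rose, beside 26.1% and 28.8% of all genes.

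Of 18 other mid- and hindbrain factors 11 were tested. From P75 to 6 months 6 fell and none rose (median log2 change -0.40), beside 29.4% and 31.2% of all genes. Gata2 and Gata3, of brainstem neurons, fell with log2 changes of -0.92 and -0.64. Barhl2, the paralogue of Barhl1, fell with one of -0.58 ± 0.16 (limma adjusted p = 0.0064), where Barhl1 itself was not called. At P18 Barhl2 averaged 269 ± 37.7 and at P75 153 ± 33.4. From P18 to P75, 5 of the 11 fell, from 6 to 24 months 1 fell and from P75 to 24 months 4 fell, with none higher. Of all genes 22.9%, 12.7% and 26.1% were lower in these comparisons. Without P18 replicate 3, 6 of the 11 factors fell from P18 to P75 and 5 from P75 to 24 months, and 1 was called higher from 6 to 24 months.

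Genes used by mature neurons of each region were also counted from P75 to 6 months. Of 12 forebrain neuron genes tested 9 rose, none fell and 3 were not called (median log2 change 0.73). Of 11 cerebellar neuron genes 6 rose, none fell and 5 were not called (median log2 change 0.25), beside 31.2% of all genes higher. Drd2 and Drd1a, dopamine receptors of the striatum, rose with log2 changes of 2.17 and 1.30. Icam5, an adhesion molecule of forebrain neurons, rose with one of 1.39, and Kcnv1, a potassium channel subunit, with one of 1.21. In the cerebellar list Grm4, a glutamate receptor of granule cells, rose with one of 2.09, Grid2ip and Slc1a6, of Purkinje cells, with 1.29 and 0.96, and Cbln1, of granule cells, with 0.52.

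These counts for the neuron genes were 4 higher and 2 lower of 12, and 3 higher and 1 lower of 11, from P18 to P75. Of all genes 25.9% were higher and 22.9% lower there. From 6 to 24 months the counts were none higher and 3 lower, and 1 higher and 1 lower, beside 16.6% and 12.7% of all genes. Without P18 replicate 3 the counts from P18 to P75 became 5 higher and 2 lower, and 4 higher and 1 lower. Those from 6 to 24 months became 2 higher and 4 lower, and 2 higher and 2 lower. From P75 to 24 months 9 forebrain neuron genes rose and 1 fell, and 6 cerebellar neuron genes rose and none fell. Of all genes 28.8% rose and 26.1% fell over that span. From P75 to 6 months 4 of the 5 forebrain factors were thus lower, Neurod6 being the exception, and 9 of the 12 forebrain neuron genes were higher, and the difference between the lists was not tested.

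**Figure D5:**
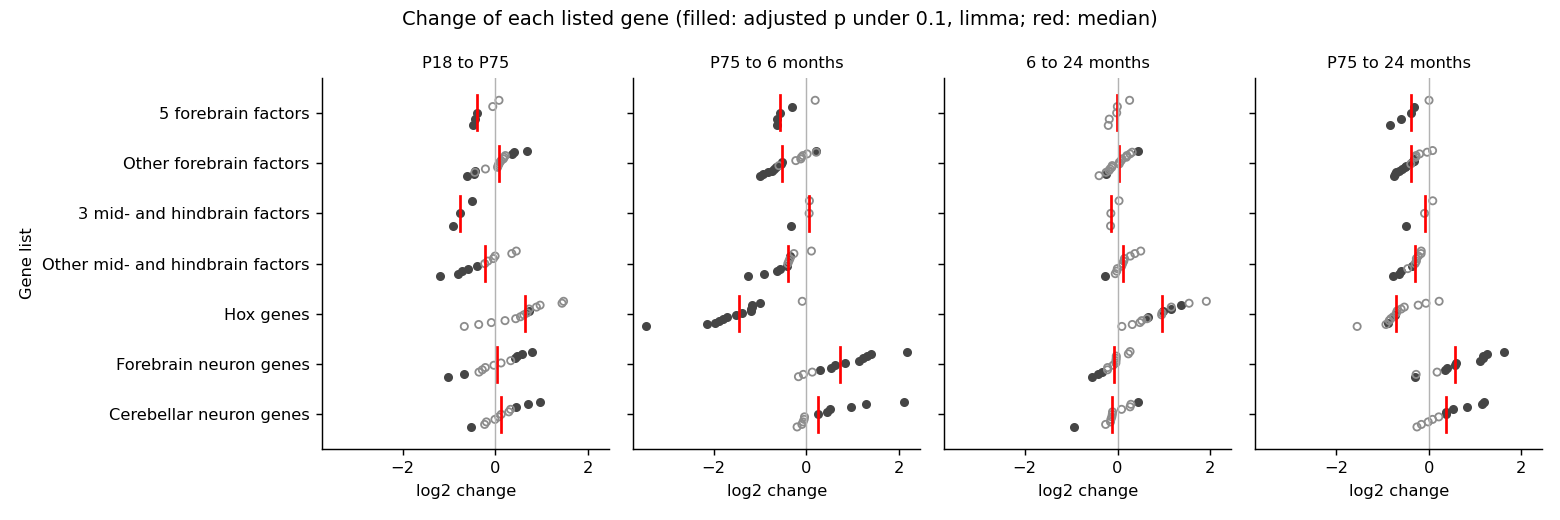
Log2 change (horizontal axes) of each tested gene of 7 lists in the 4 comparisons, filled where the limma adjusted p was under 0.1, with a red line at the list's median. From P75 to 6 months the medians are -0.58 for the 5 forebrain factors, -0.54 for the other forebrain factors and -1.46 for the Hox genes, and 0.73 for the forebrain neuron genes.

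Other markers also moved from P75 to 6 months, where 31.2% of all genes rose and 29.4% fell. Of 10 neuron markers 6 rose and 3 fell, with sums of 199886 to 228175 in the P75 libraries and 181648 to 186669 in the 6-month libraries. Snap25, the largest part of the neuron sum, was among those that fell. Of 3 tested olfactory sensory neuron markers 2 fell, and the sum of the 4 listed ran from 3647 to 4498 and from 1709 to 2289.7. That sum is mostly Gng13, which averaged 2991 and then 1461. S100a5 fell too, and Omp was not called (limma adjusted p = 0.944). Of 4 choroid plexus markers 3 rose, the sum of the 4 running from 23407 to 28774 and from 27303 to 31662. It is mostly Ttr, which averaged 25080 and then 28731 and was not called (limma adjusted p = 0.179). Of 6 microglia markers 4 rose and 1 fell, with sums of 3481 to 3905 and 4636 to 5317. Of 11 oligodendrocyte markers 3 rose and 1 fell, or 6 and 1 without P18 replicate 3 (sums of 1274419.6 to 1848210.3 and 1359023 to 2373257), of 6 astrocyte markers 2 rose (sums of 57394 to 66829 and 69315 to 79766) and of 4 endothelial markers 2 rose (sums of 245 to 295 and 288 to 320). None of these markers was at 0 in any library. Their part in the changes of the 8 factors was not tested.

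The genes most like the summed forebrain factors across the 12 libraries, by Pearson's r of log2 values and leaving out the members, were Ywhab (r = 0.983), Slc25a4 (0.981), Tpm1 (0.980), Tubb2a (0.979) and Acbd6 (0.977). Those most like the mid- and hindbrain sum were 2310035K24Rik (r = 0.980), Kif19a (0.979), Snx15 (0.979), Dcaf12 (0.978) and Dusp18 (0.978). All points of these correlations share the libraries and their scaling, and the best of 14634 genes is high by choice.

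In the annotation of NCBIM37, the build also called mm9, the 8 genes are protein coding and lie on 5 chromosomes. Tbr1, Lhx2 and Barhl1 are on chromosome 2, at chr2:61640987-61652171 and chr2:38194801-38225253 on the plus strand and chr2:28763199-28772188 on the minus strand. Emx1 is at chr6:85137432-85154456 on the plus strand and Neurod6 at chr6:55627812-55631257 on the minus strand. En1 is at chr1:122498995-122505873, En2 at chr5:28492236-28500152 and Emx2 at chr19:59533180-59539847, all on the plus strand. Lhx2 is overlapped on the opposite strand by Gm13584, whose values were not used here, and no other member has an overlapping gene in that annotation.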

How the data were processed

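RNA of purified mouse brain myelin was sequenced in 12 libraries, 3 at each of 4 ages, grouped by the age in their labels. The authors aligned reads to mm9 with TopHat2 (2.0.8 in the submitters' processing notes; the methods give another version), counted them on genes with HTSeq 0.5.4p1 and scaled each library with a DESeq size factor. What the authors deposited is a signal, the normalized read count, neither log-scaled nor divided by length. Reads recovered by dividing by the value of 1 read were whole within 0.02 read, tested up to 200 reads. In 9 of the 12 libraries this could be told from the values. In the other 3 a read is worth about 1, where it could not.

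The members and gene lists were chosen with earlier results of these data known. Ages were compared with limma 3.58.1 (R 4.3.3; moderated, with an intensity trend) after adding 1 and taking log2, so folds of low genes are understated. The 14634 genes averaging 10 or more entered 1 fit of all libraries with age alone, and calls were made at a Benjamini-Hochberg adjusted p under 0.1. An exact test of 3 against 3 cannot go below p = 0.1. On simulated data, limma recovered 99.0% of 200 genes changed 3-fold from P75 to 6 months among 14634, edgeR 4.0.16 99.0% and DESeq2 1.42.0 98.5%. Recovery of changes smaller than 3-fold, as those of all members were, was not tested. Every simulated gene had the same set spread between libraries, beyond that of read counting, and no library stood apart. Recovery for genes that spread more, such as En1 at P75 (46.5 ± 19.5, SD, n = 3), was not tested either.

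The genes named are the 8 members, the 5 Hox genes with the highest mean, the 4 genes of each other list with the largest called change from P75 to 6 months, the 5 most like each sum and genes overlapping a member. Emx2os, Nrgn, Slc30a3 and single cell type markers were named after their values were seen. Results of some genes that this rule names are not reported here. Exon lengths came from GENCODE on NCBIM37. Ppp1r17, Drd1 (present as Drd1a) and Lamp5 were not matched. Same-numbered libraries deviated together only between P75 and 6 months (r of 0.101 to 0.187); for the other age pairs no such relation held, and a block on the number changed no call of a member. Alternatives were other pseudocounts, filters, scalings, tests, thresholds and samples. Figures used Python 3.11.15, pandas 2.3.3, numpy 2.4.6 and matplotlib 3.10.9.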

Additional observations from a re-analysis of the deposited data

How the results depend on the processing

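En1 and Barhl1 rest on few reads, and the P18 libraries spread widely. Of 760 alternative values for the changes of the 8 factors, other settings kept the direction and the call in 358, turned the direction in 16 and changed a call in 1 each way, and leaving out a library kept 363, turned 16, and gained 3 and lost 2 calls. All that turned were uncalled in the main analysis. Leaving out a library of neither age compared cannot move the change, only its error and call. A stricter threshold cannot move it either. Such values can turn no direction, so the counts kept overstate how far the directions were tried.

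The number of factors called ran, with each library left out in turn, from 6 to 7 for P18 to P75, 5 to 6 for P75 to 6 months, 0 to 1 for 6 to 24 months and 4 to 5 for P75 to 24 months. For the Hox genes it ran from 1 to 9, 6 to 13, 0 to 9 and 1 to 8. The lowest for P75 to 6 months, 6, came without P75 replicate 3, and 8 without 6-month replicate 1. For 6 to 24 months it was 0 without 6-month replicate 1 or 24-month replicate 1, 1 without 6-month replicate 3 or 24-month replicate 2, and 2 without 6-month replicate 2. A mean of at least 100 left 2 Hox genes to test, with 0, 2, 0 and 0 called. It left 6 factors to test, without En1 and Barhl1, and 4 of these were called from P18 to P75. Hox calls were 2 for P18 to P75 under the same total and under quantile normalization. Under quantile normalization they were 2 and 5 for 6 to 24 and P75 to 24 months, in fits of only 2 ages 9 and 9, and at a false discovery rate of 0.05 1 and 1. The cause was not tested. The ratio of the sums per kilobase was 10.96, 13.3, 14.2 and 14.4 from P18 to 24 months.

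A block on the replicate number left 6, 5, 0 and 5 factors and 1, 13, 3 and 2 Hox genes called, and no call of a factor changed. The mean correlation of same-numbered libraries was -0.10 between P18 and P75, 0.15 between P75 and 6 months and -0.11 between 6 and 24 months.

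Directions turned as follows, on the log2 scale. Scaling to the same total gave Emx1 0.067 from P18 to P75, Neurod6 -0.040 from P75 to 24 months and Barhl1 -0.00686 from 6 to 24 months. Quantile normalization gave Tbr1 0.014 and Barhl1 -0.083 from 6 to 24 months, Neurod6 -0.015 and Barhl1 -0.095 from P75 to 24 months and Barhl1 -0.012 from P75 to 6 months. edgeR gave Tbr1 0.013, or 0.00442 without a filter, and Lhx2 0.00671 from 6 to 24 months, and En1 -0.047 from P75 to 6 months, or -0.045 without a filter. DESeq2 gave Tbr1 0.00508, Lhx2 0.000477 and, from P75 to 6 months, En1 -0.047. With each library left out in turn, Emx1 ran from -0.167 to 0.157 and Tbr1 from -0.010 to 0.206 from P18 to P75. From 6 to 24 months Tbr1 ran from -0.029 to 0.047, Lhx2 from -0.131 to 0.081 and Barhl1 from -0.015 to 0.080. En1 ran from -0.312 to 0.337 from P75 to 6 months and from -0.462 to 0.187 from P75 to 24 months, where Neurod6 ran from -0.067 to 0.097.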
